A study of Mus musculus with 2 samples.

Results

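The compact intense regions of H3K79me2 are short stretches of the mouse genome, 4 to 9 kb wide, in which reads of a chromatin immunoprecipitation were dense in 1 of the study's 2 libraries. They were chosen by the read counts of replicate 2 alone. On chromosomes 1 to 19, a 1 kb bin counted as called when it held at least 12 distinct read starts, and calls separated by no more than 2 uncalled bins were merged. This gave 59080 regions of any width, of which 31188 were a single bin and 11188 were 4 to 9 kb wide. Of the latter, 1531 had a mean of at least 20 reads per kb. A further 106 were left out because they held 3 or more distinct positions of reads with 2 placements per kb, and 1425 members remained. Together they cover 9.06 Mb, or 0.377% of the autosomal span. The rule did not use the reads of replicate 1, so tests were made on that library alone.

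H3K79me2 is dimethylation of lysine 79 of histone H3, a residue on the face of the nucleosome core rather than in a tail. DOT1L is the enzyme that places it, and DOT1L travels with elongation complexes of RNA polymerase II. The mark therefore lies over transcribed genes, is usually densest downstream of the start of transcription and fades along the gene body.

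Both libraries belong to 1 group, mouse embryonic fibroblasts (connective tissue cells taken from embryos), cultured in DMEM with 10% FBS and with no treatment named, and both used an Abcam antibody against H3K79me2. The libraries carry different run names. Per the labels, sonicated chromatin averaged 500 bp, and libraries were made by LM-PCR (18 cycles) and size-selected on a gel at 150 to 350 bp for replicate 1 and 150 to 300 bp for replicate 2. The labels give no strain, passage or genotype. Nothing says that separate cultures were used, so the spread between the libraries may be technical, and their numbers are only names. The labelled cell type was not checked against markers, and regions are given by position alone, because gene coordinates of the build mm8 were not used here.

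Replicate 1 held 16472599 distinct autosomal starts of reads with 1 placement and replicate 2 held 12862946. The median 10 kb bin had 6.7 and 3.3 reads per kb. Of these starts, members took 0.834% in replicate 1 (95% Wilson interval 0.829 to 0.838) and, where the rule raised it, 1.97% in replicate 2 (1.96 to 1.98). Intervals and tests on reads cover counting error only, as amplified reads carried no molecular identifiers. Starts within members were split evenly between the strands, at 50.0% and 50.2% on the plus strand. Repeated starts made up 15.9% of the member reads of replicate 1 and 7.43% of those of replicate 2, against 15.2% and 5.65% over the autosomes.

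The first question was whether regions picked for high counts in replicate 2 also stood above their surroundings in replicate 1. Most did. Reads of replicate 1 passed as denser than in the flanks in 927 of the 1424 members that could be tested. None passed as less dense, and 497 passed in neither direction. The share is 65.1%, against 10.9% of all 59065 regions tested, most of them narrower and weaker and so harder to call. Each region was compared with the bins within 10 kb on each side that were not called in replicate 2, by an exact two-sided binomial test with Benjamini-Hochberg adjustment over all regions and a threshold of 0.01. The 1 member not tested, on chromosome 3, had fewer than the 5 usable flank bins required.

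The rise in replicate 1 was modest in size. The median member held 14.0 reads per kb there (quartiles 11.3 and 18.0) beside 7.6 reads per kb in its flanks (6.6 and 8.87). Fold over flanks, here always the reads per kb plus 1 in the region over the same in the flanks, was 1.76 at the median, with quartiles of 1.42 and 2.15 (median log2 fold 0.81). It was above 1 in 1377 and at least 2 in 469 of the 1424 members tested. Over all 59065 regions tested the counts were 37452 and 3448. In replicate 2 the median member held 25.8 reads per kb beside 5.5 in its flanks, a fold of 4.35 in the library that chose it. Averaged over the libraries, the log2 fold was 1.47 at the median, with a standard deviation of 0.92 between the medians of the 2 libraries. In only 2 members was the fold of replicate 1 at least that of replicate 2, against 597 of all 59065 regions tested.

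Regions of the same width that missed the mean of 20 reads per kb looked different in replicate 1. Of 9526 such regions tested, 503 (5.28%) were above their flanks, and their median log2 fold was 0.14. Wider regions of 10 to 49 kb over the same mean, 3150 of them tested, were above their flanks in 87.1% of cases, and their median log2 fold was 0.91 against 0.81 in the compact members. Narrow regions of 2 to 3 kb over that mean came to 21.1% of 845 and a median of 0.43. Wider regions hold more reads and are tested with more power, so the shares called are not measures of size. Regions are not replicates, so the groups were not tested against each other.

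**Figure D1:**
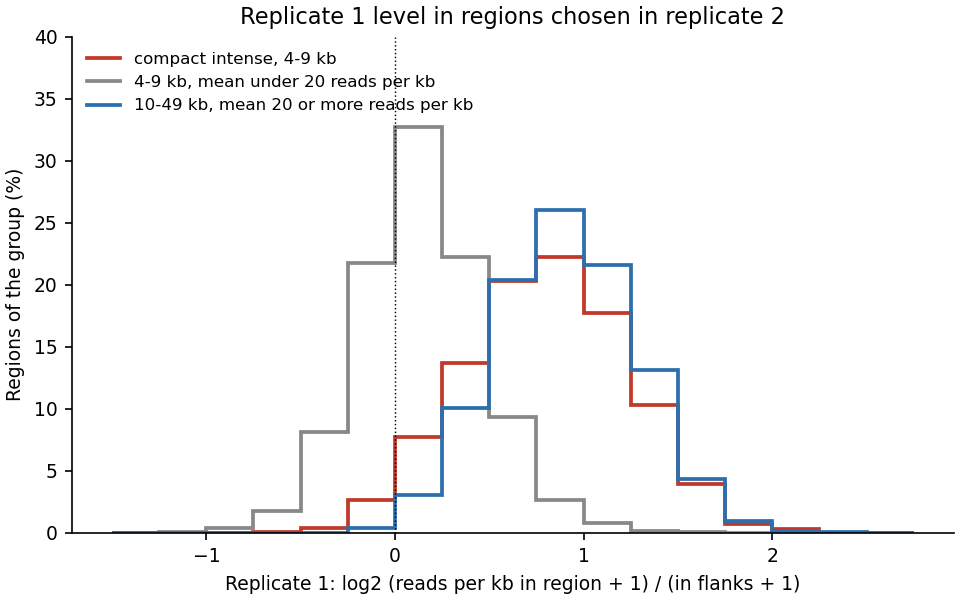
Distribution of the log2 fold over flanks in replicate 1 (horizontal axis) for the compact intense regions, for regions of the same width under the mean threshold and for regions of 10 to 49 kb over it, as a percentage of each group (vertical axis). The dotted line marks equal density in region and flanks. The medians are 0.81, 0.14 and 0.91.

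Within regions of 4 to 9 kb the level of replicate 1 climbed with that of replicate 2, and most between the bands on either side of the threshold. The median log2 fold in replicate 1 was 0.08 for means under 12 reads per kb in replicate 2, 0.15 for 12 to 15 and 0.29 for 15 to 20. Inside the threshold it was 0.62 for 20 to 25 reads per kb (635 members), 0.83 for 25 to 30 (373 members), 0.99 for 30 to 40 (297 members) and 1.22 for 40 or more (120 members). The share above flanks grew along the same bands from 1.65% in the lowest through 15.5% just outside and 48.4% just inside the threshold to 93.3% in the highest. Across the 1424 members, Pearson's r between the libraries was 0.36 for reads per kb and 0.55 for log2 fold over flanks, and Spearman's rho was 0.40 and 0.56. Both libraries share the same placeable sequence, whose part in these values was not tested, and members are not independent replicates.

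**Figure D2:**
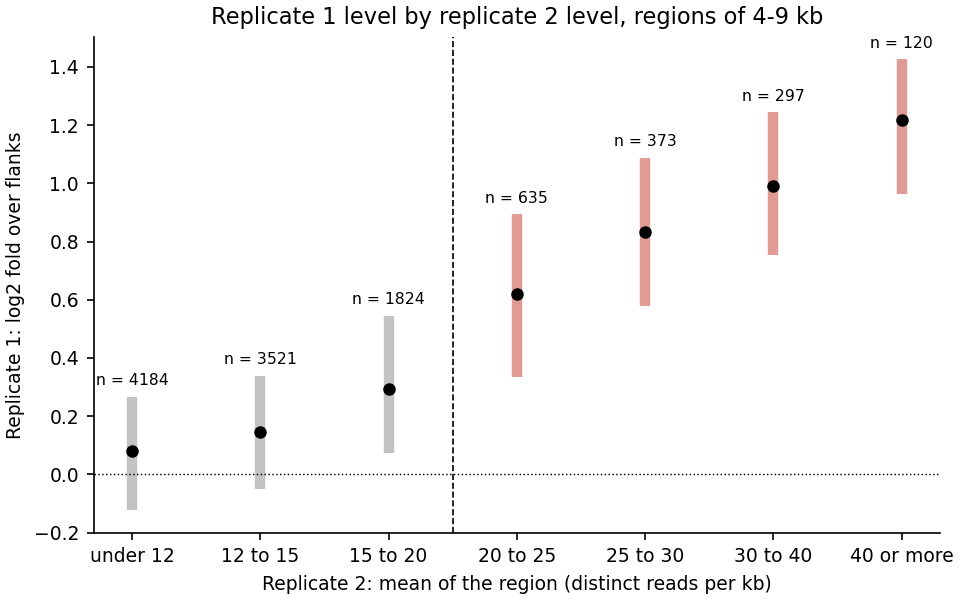
Log2 fold over flanks in replicate 1 (vertical axis) for regions of 4 to 9 kb, in bands of their mean in replicate 2 (horizontal axis, distinct reads per kb). Points are medians, bars span the lower to the upper quartile, n is the number of regions, and the dashed line marks the threshold of 20 reads per kb. Medians run from 0.08 to 1.22.

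The values on either side of the threshold show how little separates a member from a region left out. Just inside, with 20 reads per kb in replicate 2, were chromosome 1 from 9721001 to 9727000, with 103 reads in replicate 1 and 120 in replicate 2, chromosome 10 from 14389001 to 14396000, with 181 and 140, and chromosome 12 from 4831001 to 4835000, with 85 and 80. Their log2 folds in replicate 1 were 0.15, 1.44 and 1.71. Just outside, at 19.9 reads per kb and 179 reads in replicate 2 over 9 kb, were chromosome 13 from 115477001 to 115486000, chromosome 16 from 24886001 to 24895000 and chromosome 8 from 34846001 to 34855000. They held 127, 120 and 149 reads in replicate 1, with log2 folds of 0.38, 0.38 and 0.74. The ranges of the named inner and outer regions overlap in replicate 1.

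Among the members, the 10 highest folds in replicate 1 came from 8 chromosomes and ran from 3.46 to 4.34. The highest was chromosome 4 from 86220001 to 86226000. Its 6 consecutive bins of 1 kb held 13, 38, 36, 27, 30 and 23 reads in replicate 1 and 63, 22, 37, 51, 36 and 28 in replicate 2. The flanks held 5.64 and 4.93 reads per kb, so the region stood 4.34 times over them in replicate 1 and 6.83 times over them in replicate 2 (average log2 fold 2.45 ± 0.46 SD, n = 2, exact binomial test in replicate 1, adjusted p = 5.78e-32). Every bin of both libraries was above the flank level.

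The second, chromosome 9 from 122710001 to 122715000, had 20, 32, 29, 34 and 19 reads per bin in replicate 1 and 32, 24, 29, 56 and 46 in replicate 2, at 4.04-fold and 8.94-fold. Chromosome 4 from 122786001 to 122792000 sloped the same way in both, with 43, 37, 24, 21, 12 and 14 reads in replicate 1 and 99, 64, 35, 14, 24 and 36 in replicate 2, at 4.03-fold and 7.19-fold. Chromosome 11 from 107295001 to 107303000 held the most reads of the 10 in replicate 1, 238 over 8 kb, and 349 in replicate 2, at 4.02-fold and 7.23-fold (exact binomial test, adjusted p = 3.86e-40). In these 4 regions replicate 1 reached 4-fold, which no other member did.

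Rank 5, chromosome 13 from 71098001 to 71106000, had 233 and 376 reads and folds of 3.89 and 7.29. Chromosome 9 from 72073001 to 72081000 had more reads in replicate 1 than in replicate 2, 207 against 189, and folds of 3.70 and 5.28. Chromosome 16 from 3658001 to 3663000, with 102 and 178 reads, was 3.60-fold and 6.89-fold. It had no other region of the rule within 10 kb.

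Chromosome 1 from 138441001 to 138449000 had the closest folds of the 10, 3.53 and 4.31 for replicates 1 and 2 (average log2 fold 1.97 ± 0.20 SD, n = 2), from 227 and 253 reads. Chromosome 15 from 81871001 to 81875000, the narrowest, had 109 and 202 reads and folds of 3.53 and 7.83. Chromosome 18 from 5660001 to 5668000 had 151 and 229 reads, with folds of 3.46 and 8.08 over sparse flanks of 4.75 and 2.67 reads per kb. All 10 were higher in fold in replicate 2, the library that chose them.

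At the other end, the 5 lowest members were dense in replicate 2 and at or below their flanks in replicate 1. Chromosome 17 from 10162001 to 10166000 held 14, 57, 7 and 28 reads per bin in replicate 2 but 1, 12, 12 and 17 in replicate 1, where its flanks stood at 15.7 reads per kb (0.689-fold, exact binomial test, adjusted p = 0.098). Chromosome 3 from 5224001 to 5229000 held 106 reads in replicate 2 and 59 in replicate 1 (0.714-fold, flanks at 16.9 reads per kb). Chromosome 18 from 69697001 to 69702000 held 143 and 46 (0.748-fold, flanks at 12.6). In these 3 the flanks of replicate 1 stood well above the median of 7.6 over all members.

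Chromosome 2 from 74480001 to 74485000 was the extreme of that kind. It held 22, 22, 16, 6 and 23 reads per bin in replicate 1, 17.8 reads per kb, which is above the median member, yet its flanks held 23.5 reads per kb, the highest flank level of any member tested. In replicate 2 the same flanks held 6.4 reads per kb. Chromosome 19 from 27284001 to 27289000, the fifth, had 37 reads in replicate 1 and 111 in replicate 2, over flanks of 9.33 and 5.28. None of the 5 passed the test in either direction. Over the 47 members with a log2 fold of 0 or less in replicate 1, the median flank level there was 9.6 reads per kb, and the median of the regions themselves was 9.0.

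**Figure D3:**
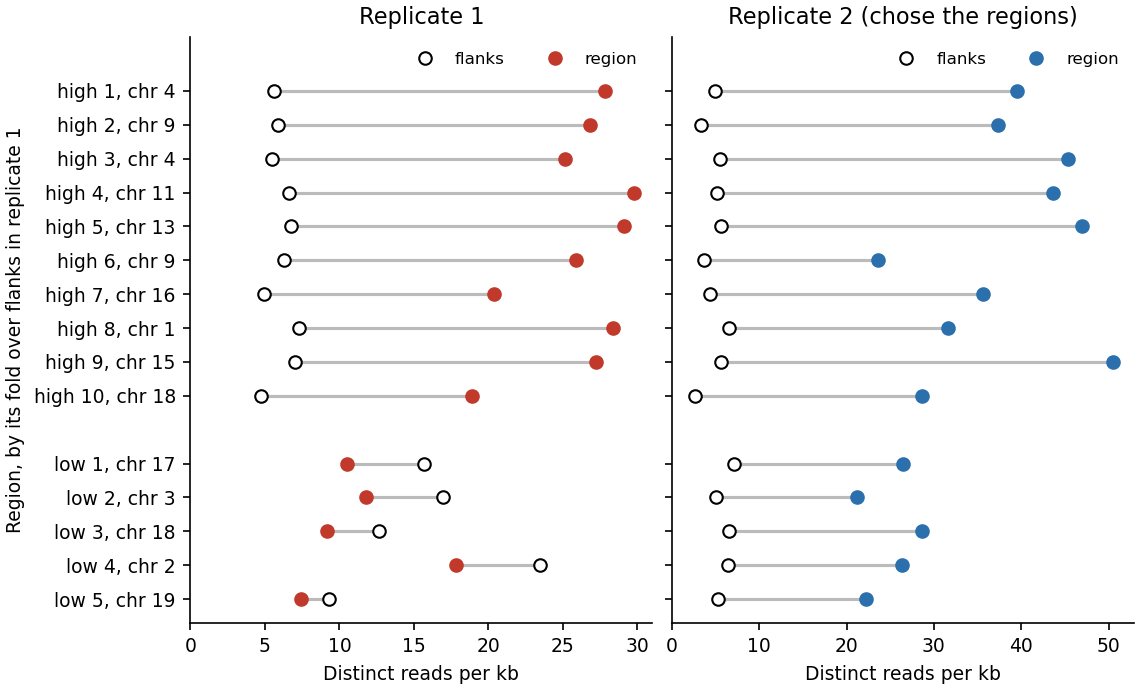
Distinct reads per kb (horizontal axis) in the region (filled) and in its flanks (open) for the 10 members with the highest and the 5 with the lowest fold over flanks in replicate 1, labelled by rank and chromosome. In replicate 2, which chose the regions, all 15 stand clear of their flanks. In replicate 1 the 5 lowest lie below theirs, and the flank of the low region on chromosome 2 is at 23.5 reads per kb.

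The call in replicate 1 is made from its own reads in the region and flanks, so differences in those between called and uncalled members follow from the split and are given as a description. The 927 called members had a median of 16.3 reads per kb in replicate 1 over flanks of 7.46, and 27.7 reads per kb in replicate 2. The 497 not called had 10.6 reads per kb over flanks of 8.0, and 23.3 in replicate 2. The first group was also wider, at a median of 7 kb against 6 kb. Of the 497, 450 still had a positive log2 fold, with a median of 0.37 over all 497. Width set the number of reads: members of 4 kb held a median of 52 reads in replicate 1 and 46.4% were called, while members of 9 kb held 133 and 73.7% were called. The median log2 fold changed less with width, from 0.70 at 4 kb to between 0.79 and 0.86 at 5 to 9 kb.

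Strength in replicate 2 and strength in replicate 1 did not always go together. The member with the highest mean of replicate 2 was chromosome 2 from 130866001 to 130872000, at 75 reads per kb, with 15, 7, 44, 105, 218 and 61 reads per bin. Replicate 1 had 17, 11, 7, 32, 39 and 7 in the same bins, a fold of 2.32 against 10.6. Chromosome 5 from 48271001 to 48276000 came next, at 73.2 reads per kb in replicate 2 and 32.2 in replicate 1. It held no read with 2 placements in either library, and its flanks in replicate 1, at 13.6 reads per kb, were also raised (2.27-fold against 11.8-fold). In both of these the bins with most reads were the same or adjacent ones in the 2 libraries.

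The next 3 members by mean of replicate 2 also had lower folds in replicate 1, as did all but 2 of the members tested. Chromosome 7 from 82742001 to 82747000 held 364 reads in replicate 2 and 65 in replicate 1, with folds of 11.8 and 1.59. Chromosome 19 from 4148001 to 4154000 held 405 and 98, with folds of 8.47 and 1.96. Chromosome 7 from 83753001 to 83761000 held 537 and 116, with folds of 9.04 and 1.54. In that region a single bin had 302 of the 537 distinct reads of replicate 2 and 36 of the 116 of replicate 1, and 19.6% and 20.5% of its reads were repeated starts. All 5 of the strongest members passed the test in replicate 1, with adjusted p from 9.16e-15 to 0.00843 (exact binomial test).

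By count rather than fold, replicate 1 held more reads than replicate 2 in 45 members, ties included, despite the choice by replicate 2. These counts were not adjusted for the greater depth and background of replicate 1. The share over all regions is not given here. The member with the highest level in replicate 1 was one of the 45, chromosome 2 from 77739001 to 77747000, with 420 reads (52.5 per kb) against 188 (23.5 per kb) in replicate 2. Its flanks in replicate 1 were also high, at 20.6 reads per kb, which left a log2 fold of 1.31 against 1.96. This region was picked out after its values were seen.

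Replicate 1 was more often densest inside the members than at their edges. The bin of 1 kb with most reads in replicate 1 was an inner one, not the first or last of the region, in 1200 members (84.2%), where inner bins make up 68.5% of all member bins. The edges were set by replicate 2, and their part in this share was not tested. In 454 members (31.9%) the bin with most reads was the same in both libraries, and in 1040 (73.0%) the 2 lay at most 1 bin apart. Every region has a densest bin, and the agreement expected by chance was not computed. At the median, 37.5% of the bins of a member were at least 2-fold over the flanks in replicate 1.

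Within 200 bp, each library had its own densest window. At the median it was 3.41 times the mean density of the member in replicate 1 and 4.6 times in replicate 2, each window being picked as the densest of its library. When members were aligned on the densest 200 bp of replicate 2, that window held 136.6 reads per kb in replicate 2 on average, 4.33 times the level in the rest of the surrounding 2 kb, a contrast that the alignment creates. At the same windows replicate 1 held 20.6 reads per kb against 17.2 around them, a ratio of 1.20 (95% Wilson interval 1.16 to 1.23). This small excess sat on a broad rise: replicate 1 fell from 15.7 and 16.7 reads per kb at 1 kb on either side to 12.7 and 13.2 at 2 kb and 8.72 and 8.91 at 5 kb. The ratio in replicate 1 was 1.12 (1.10 to 1.14) in the weaker regions of the same width and 1.25 (1.23 to 1.27) in the regions of 10 to 49 kb, so a small excess at the window was not particular to the compact members.

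The densest windows of the libraries seldom coincided. Each library's own densest 200 bp lay within 200 bp of the other's in 200 members (14.0%), and the median distance between them was 903 bp. In weaker regions of the same width the share was 9.63% and the distance 1579 bp. In regions of 10 to 49 kb they were 9.48% and 2025 bp. The share expected for windows placed at random was not computed. In the window that was densest in replicate 2, replicate 1 had a median of 3 reads, and in 92 members it had none.

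**Figure D4:**
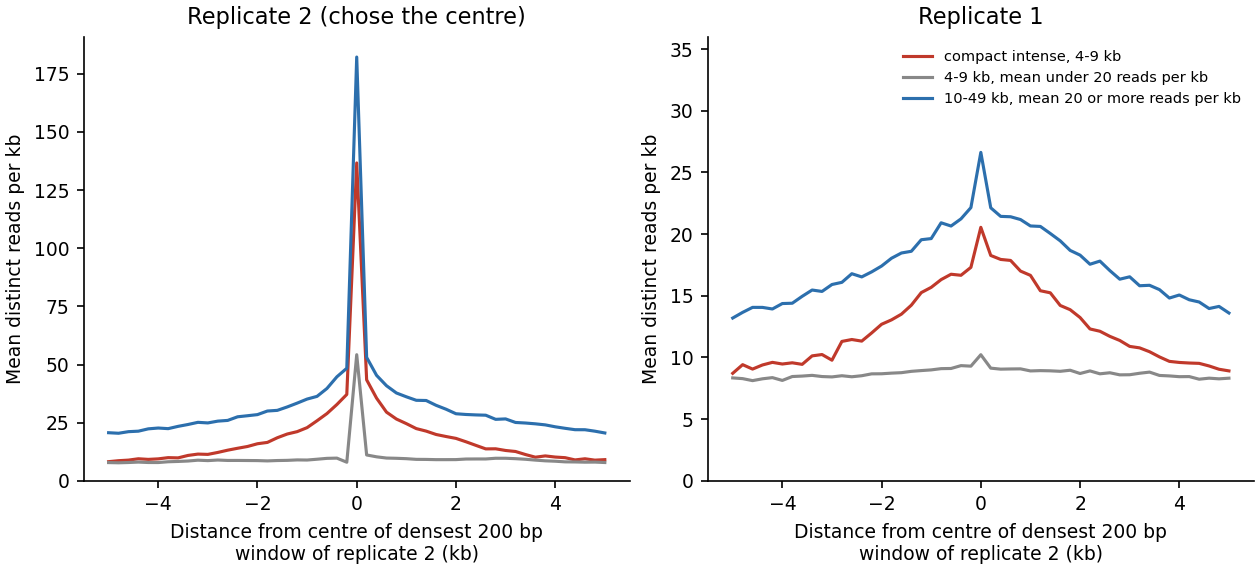
Mean distinct reads per kb (vertical axes, different scales) in steps of 200 bp around the densest 200 bp window of replicate 2 in each region (horizontal axes, kb), for the compact intense regions, weaker regions of the same width and regions of 10 to 49 kb. In replicate 2 the central spike is made by the alignment. In replicate 1 the compact regions peak at 20.6 reads per kb and return to 8.72 and 8.91 reads per kb at 5 kb, while the wider regions are still at 13.4 there.

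Some members leaned to one side. Reads of replicate 1 differed between the left and right sides of the region (without the middle bin where the width is odd) in 219 of 1425 members (15.4%), by an exact binomial test with adjustment over all 19068 regions of at least 4 kb, of which 14.2% passed. The share is near that background, so lopsidedness is not a result about these members. The wider regions of 10 to 49 kb, with more reads each, passed in 48.3% of cases. Weaker regions of the same width, with fewer reads per kb, passed in 1.15% of 9529. Of the 219, 98 were higher at the lower coordinates and 121 at the higher coordinates.

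The direction of the lean was mostly shared by the libraries. Replicate 2 was higher on the same side in 196 of the 219 (89.5%, 95% Wilson interval 84.7 to 92.9), against 95.5% of all 2712 regions that passed. That interval treats members as independent, which they are not. Over all 1388 members with a higher side in both libraries, whether or not they passed, 1030 (74.2%) had the same one. Counted the same way, the share was 65.9% over all regions of the rule. It was 54.9% in weaker regions of the same width and 87.3% in regions of 10 to 49 kb. When each of 1416 members was turned so that the higher side of replicate 2 lay at the left, replicate 1 averaged 16.9 reads per kb on that side and 13.3 on the other, a ratio of 1.27. The average shape of replicate 1 rose from 11.3 reads per kb at the left edge to 19.8 at 32.5% of the width and then declined to 10.4 at the right edge. Replicate 2 had its highest value at 17.5% of the width, but its orientation was chosen on the same reads.

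**Figure D5:**
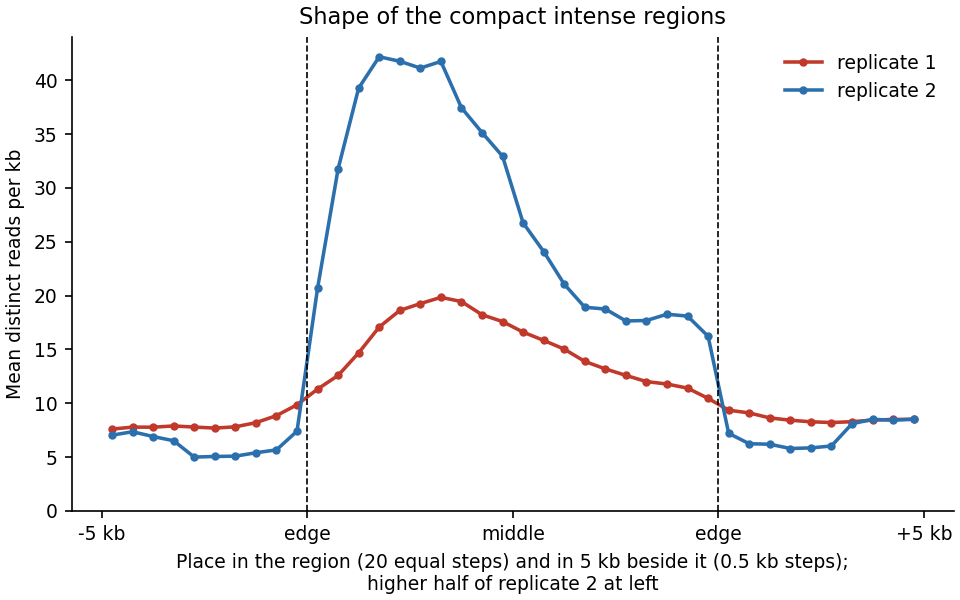
Mean distinct reads per kb (vertical axis) across 1416 members in 20 equal steps from edge to edge (dashed lines) and in 5 kb beside them in steps of 0.5 kb, with the higher side of replicate 2 turned to the left. The orientation and the sharp edges of replicate 2 follow from the choice. Replicate 1, not used for either, peaks at 19.8 reads per kb in the left part of the region and declines toward the right.

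The 5 members with the most unequal sides in replicate 1 all had the same higher side in replicate 2, by margins that differed widely. Chromosome 11 from 69693001 to 69702000 first rose and then fell along its 9 bins in replicate 1, with 13, 27, 44, 21, 5, 9, 1, 4 and 6 reads, and likewise in replicate 2, with 27, 57, 132, 70, 26, 15, 10, 4 and 18. Its left side held 105 reads against 20 in replicate 1 (exact binomial test, adjusted p = 1.87e-13) and 286 against 47 in replicate 2. Chromosome 7 from 11822001 to 11829000 had 88 against 18 and 120 against 43. Chromosome 14 from 113922001 to 113927000 leaned the other way in both, with 8 against 43 and 23 against 83. In these 3 the libraries shared a clear direction.

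Chromosome 5 from 149360001 to 149364000 had 17, 35, 0 and 9 reads per bin in replicate 1 and 16, 59, 24 and 32 in replicate 2, so the bin empty in replicate 1 was filled in replicate 2. Its left side was higher in both libraries, with 52 against 9 reads in replicate 1 and 75 against 56 in replicate 2. Chromosome 5 from 82094001 to 82099000 had 8 against 42 reads in replicate 1 but 35 against 36 in replicate 2. This last region was not above its flanks in replicate 1, at 1.07-fold. Here a clear lean in replicate 1 was all but absent in replicate 2.

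Compact members lay about as close to other regions as regions of the rule in general. The nearest other region of the rule was 4 kb away at the median, close to the smallest gap of 3 kb that the joining allows, and 1156 members (81.1%) had one within 10 kb. Over all 59080 regions the median was 5 kb and the share 77.5%, and for weaker regions of the same width they were 4 kb and 88.8%. In 373 members a region of 10 kb or wider lay within that distance. These members were lower in replicate 1: their median log2 fold was 0.66 and 51.9% were above their flanks, while for the 269 with no other region within 10 kb the values were 0.91 and 74.3%. The median level of the region itself was also lower, at 12.9 against 14.8 reads per kb in replicate 1. The part of flank level in this difference was not tested.

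Members occurred on all 19 autosomes, at 0.592 per Mb overall. Chromosome 11 had the highest density, 0.867 per Mb (103 members), followed by chromosome 9 at 0.851 (103) and chromosome 7 at 0.788 (112). Chromosome 18 had the lowest, 0.410 per Mb (36), followed by chromosome 16 at 0.420 (40) and chromosome 14 at 0.463 (56). The order was not that of all regions of the rule: chromosome 19 was second in these, at 30.6 per Mb, and sixth in compact members, at 0.617, while chromosome 7, among the densest in compact members, had 24.2 regions of any kind per Mb. The share above flanks in replicate 1 ran from 54.0% on chromosome 17 to 79.7% on chromosome 13, where the median log2 fold was 1.0. With 36 to 127 members each, and without replicates beyond the 2 libraries, differences between chromosomes were not tested.

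At the scale of 1 Mb, 882 of 2416 windows held a member, and 544 of these held 1. Only 20 windows held 5 or more, 114 members in all. Windows with 7 were found on chromosome 11 from 101000001 to 102000000, where 6 of the 7 were above their flanks in replicate 1, on chromosome 12 from 70000001 to 71000000 (5 of 7), and on chromosome 7 from 126000001 to 127000000 (4 of 7) and from 141000001 to 142000000 (6 of 7). On chromosome 17 from 34000001 to 35000000, 4 of 5 members were above their flanks, and the median log2 fold of 1.40 was the highest of the 20 windows. On chromosome 7 from 127000001 to 128000000, 1 of 5 was, with a median of 0.31, the lowest of the 20.

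Applying the same rule to replicate 1 and reading the outcome in replicate 2 gave a smaller set. With a background of 6.7 reads per kb in replicate 1, the bin minimum of 12 lies closer to background there, so the settings are not equally strict in the libraries. It found 424 regions, of which 415 of 423 tested (98.1%) were above their flanks in replicate 2, with a median log2 fold of 1.96. Over all 131535 regions of any width called in replicate 1 and tested in replicate 2, the share was 8.96%. Of the 424, 121 (28.5%) overlapped a compact member of replicate 2, which is 8.49% of the 1425, and 266 (62.7%) overlapped a region of 10 kb or wider. Only 1 overlapped no region of replicate 2.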

How the data were processed

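The authors deposited 1 list of signed read positions per library, in the unit of genome position, the sign giving the strand. Bowtie placed the reads on mm8, per the file headers (-e 70, -k 2, -m 2, -n 2, -l 36, best first), and reads with 1 placement and with 2 stand in separate sections. Its version, any read filter and any input library are not given in the sources used here.

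From these lists, distinct signed positions were counted in 1 kb bins, and coordinates were written counted from 1. Flanks were the 10 kb on each side without bins called in replicate 2 or empty in both libraries, with at least 5 bins. Folds used a pseudocount of 1 read per kb. Fine profiles moved the 5′ end 60 bp downstream, with a read length of 36. Exact binomial tests on replicate 1 were adjusted over all regions of the rule (threshold 0.01), those between sides over all regions of at least 4 kb. Both were run on simulated counts that held only the counting error that the tests assume. That run cannot show how they behave where real reads vary more. Each test compares parts of 1 library, not conditions. The regions named were the 10 highest and 5 lowest in fold in replicate 1, the 5 highest in replicate 2, the 5 with the most unequal sides and 3 nearest the threshold on each side. Inside the threshold, other members tied with the 3 named. The members and these choices were made with earlier results of these data known. Alternatives changed flanks, read treatment, thresholds and the rule. Python 3.11.15, NumPy 2.4.6, SciPy 1.17.1, pandas 2.3.3 and matplotlib 3.10.9 were used.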

Additional observations from a re-analysis of the deposited data

Results flagged for a closer look

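The rule covers chromosomes 1 to 19, and chromosome X was outside every comparison above. On X, 26 regions met the same thresholds in replicate 2, or 0.160 per Mb. In replicate 1, 25 of them had a positive log2 fold over flanks, with a median of 0.91 and a range of -0.10 to 1.96. The highest was X from 147574001 to 147578000, with 105 reads in replicate 1 and 182 in replicate 2 over flanks of 6.0 and 4.55 reads per kb.

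Counts used only reads with 1 placement, and the rule capped those with 2 in replicate 2. The members held 2453 distinct positions of such reads in replicate 1 and 4153 in replicate 2, which is 0.271 and 0.458 per kb, against 0.388 and 0.285 per kb over the autosomes. In replicate 1, where no cap applied, 4 members reached 3 or more per kb and 601 held none. The highest was chromosome 18 from 33333001 to 33340000, with 4 per kb in replicate 1 and 0.286 in replicate 2, and log2 folds of 0.70 and 2.26.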

How the results depend on the processing

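No median log2 fold changed sign under any alternative run, and counts, shares and ratios could not. Of 56 values recomputed, 33 stayed near the reported one and 23 moved. Near means within 1.5 times a count, or within the interval of a median, share or ratio. The values without either library were held against the SD between the 2 libraries. They lie within it almost by construction, so they test nothing. Moving the 5′ end, keeping repeated starts, thinning replicate 1, other flanks, reads with 2 placements and a limit of 1 on them per kb left the 927 members above flanks within 1.5 times. The median log2 fold of 0.81 in replicate 1 has an interval of 0.78 to 0.84 that treats members as independent, which they are not. Outside that interval were 0.76 with flanks of 5 kb (776 members above flanks, 54.8% of those tested) and 0.76 with reads with 2 placements added. So were 0.75 with flank bins of at least 3 reads in replicate 2 (825 members above flanks) and 0.86 with the nearest 2 kb left out of the flanks. Requiring 2-fold as well left 469 members above flanks. An adjusted p below 1e-04 (exact binomial test) left 651 of 1424 above flanks (45.7%) and 83 with unequal sides. Stricter settings leave fewer by construction. Changing the rule changed the members: calling bins at 10 reads gave 829, of which 573 were above flanks (median 0.86), at 15 reads 2541, 1549 and 0.74, with no gap 6378, 2682 and 0.64, at a mean of 25 reads per kb 790, 620 and 0.95, and with the roles of the libraries exchanged 424, 415 and 1.96. The same side was higher in both libraries in 74.2% of members when those not called were counted too, against 89.5%. The ratio at the densest window, 1.20, was 1.16 with the 5′ end not moved and 1.27 for a window of 100 bp. Without either library, the median log2 fold was 0.81 to 2.12, the value of the other library alone. Members come from replicate 2 and the tests from replicate 1, so neither test could be run with a library left out. For the remaining moves the cause was not tested. The settings for the densest window, the nearest 2 kb and flank bins outside all regions were chosen after seeing the data. Depth limits single members: with 52 reads at the median, 46.4% of members 4 kb wide passed. No paired analysis was possible because there is 1 group.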
